A study of Mus musculus with 6 samples.

Results

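The genes described here encode the complement cascade, blood coagulation and the plasminogen system, as 37 named members chosen by gene symbol, and all 37 were found among the 22134 genes measured. They were followed in 6 mouse RNA libraries of wild-type adipose tissue. The 3 creeping fat libraries came from animals with repeated cautery injury of the colon, a model in which mesenteric fat extends over the injured bowel, and the 3 control libraries from mesenteric adipose tissue of animals without injury. The sources used here give no strain, age, sex or pooling of animals. The labels do not say which animal each library is from, and the p-values therefore measure the spread between these libraries, which may be technical.

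Complement is a set of plasma and tissue proteins that tag and lyse targets. The classical route starts with C1q and its proteases C1r and C1s, the lectin route with ficolins, collectins and MASP proteases, and the alternative route with C3, factor B and properdin. Cleaved C3 and C5 release small peptides that act on leukocyte receptors, and C6 and C7 join the pore-forming terminal complex. Coagulation starts where tissue factor meets factor VII and ends in fibrin, which factor XIII crosslinks, and plasmin, made by the activators tPA and uPA, dissolves it. The liver supplies most of these proteins in plasma, while macrophages, fibroblasts and adipocytes make some of them in tissue.

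Values are FPKM, fragments per kilobase of gene, scaled to the size of the library, which allow levels of different genes to be compared per length. Values listed for a group are in the order of replicate 1, 2 and 3. Library totals recovered from the FPKM steps were 32837045 to 36158204 reads in creeping fat and 31186018 to 43415696 in controls. Fold changes are the creeping fat minus control differences that limma estimated on log2(FPKM + 1), with the moderated SE, and a gene was called at a Benjamini-Hochberg adjusted p under 0.05 over 12812 tested genes. Control 2 stood apart from the other controls in lymphocyte markers (T cell share 0.0249% against 0.00484% and 0.00635%). It also had lower shares of adipocyte markers (0.928% against 2.28% and 2.47%) and mesothelial markers (0.00476% against 0.0243% and 0.0231%). Creeping fat 2 stood apart from the other creeping fat libraries in the pancreatic markers given below. Values without control 2 or creeping fat 2 are given where they matter.

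Marker genes of several cell types moved with the groups. Of 13 macrophage markers 9 rose, and their summed share of the FPKM total was 0.890% to 1.52% in creeping fat and 0.199% to 0.419% in controls. All 8 fibroblast markers rose (1.97% to 2.70% against 0.222% to 0.270%) and all 8 adipocyte markers fell (0.177% to 0.377% against 0.928% to 2.47%), so adipocyte transcripts were present in every library. All 8 seminal vesicle markers rose (4.87% to 8.78% against at most 0.0156%) and 10 of 12 exocrine pancreas markers fell (0.00355% to 1.24% against 3.92% to 10.1%). Of 7 tested hepatocyte markers 1 fell, and their share overlapped between the groups (0.0114% to 0.0132% against 0.0053% to 0.0156%). No marker of these 6 lists was listed at 0 in every library, and 7 of the 8 seminal vesicle markers were at 0 in control 1. In bulk tissue fewer cells of a type and less RNA per cell cannot be told apart, and the part of these shares in the results below was not tested.

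Of the 37 members 35 passed the filter of 1 FPKM in at least 3 libraries. Among these, 18 rose in creeping fat, 2 fell and 15 did not pass the test. Over all tested genes 9.35% rose and 6.81% fell (16.2% in either direction). At an unadjusted p under 0.05 in limma's test, 23 of the 35 were higher and 3 lower, beside 2184 and 1759 of all 12812 tested genes. The groups did not overlap in 27 members, 23 with every creeping fat library above every control and 4 with every one below, beside 20.2% and 16.9% of all tested genes (37.0% in either direction). The median log2 fold change of the 35 was 1.21, beside 0.02 over all tested genes, and 28 of the 35 were above 0, as were 51.7% of all tested genes. A2m and Cd46 passed the filter through 1 group only, creeping fat for A2m and controls for Cd46. The members were chosen with earlier results of these data known, so these counts describe them and test nothing.

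The summed FPKM of the members was 1.40%, 1.16% and 1.20% of all FPKM in creeping fat and 0.424%, 0.691% and 0.523% in controls. C3 alone made up 29.4% to 35.8% of the member sum in creeping fat and 27.5% to 39.7% in controls. In both groups the C1q chains followed C3, and C1s1, C4b, Clu and Gas6 came next. The largest moves in order were those of Fcna, from rank 14 in controls to rank 25 in creeping fat, A2m, from 36 to 24, and C3ar1, from 29 to 19.

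**Figure D1:**
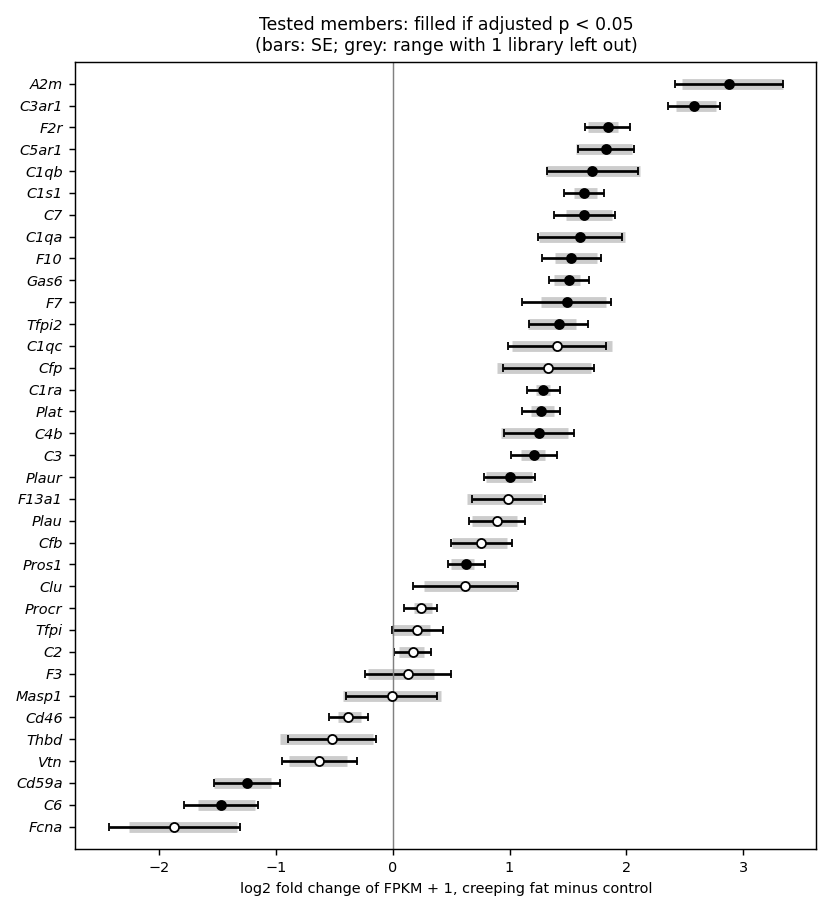
Log2 fold change of FPKM + 1 (creeping fat minus control) of the 35 tested members, with the SE as bars; filled points passed at an adjusted p under 0.05, and grey bands span the 6 fits that each left out 1 library. Rises from 0.63 (Pros1) to 2.88 (A2m) and the falls of Cd59a and C6 passed, while Fcna has the lowest value and did not pass.

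The proteases C1ra and C1s1, the C1q chains C1qa and C1qb, and C4b of the classical pathway rose in creeping fat. Of 9 tested members of the classical and lectin routes 5 rose and none fell in limma's test (6 and 1 at an unadjusted p under 0.05; voom on recovered reads called none lower either), with a median of 1.29. C1qa, one of the 3 chains of the C1q recognition molecule, stood at 389.6, 347.6 and 428.8 FPKM in creeping fat and at 78.9, 220.9 and 118.8 in controls. Every creeping fat library lay above every control, and control 2 was the highest control. The rise was 1.60 ± 0.36 (SE, adjusted p = 0.0276). C1qb, the second chain, rose by 1.71 ± 0.39 (466 ± 65.2 against 156 ± 85.6 FPKM, SD, n = 3, adjusted p = 0.029). C1qc, the third chain, did not pass at 1.41 ± 0.42 (adjusted p = 0.0649), although its libraries did not overlap either (330.0 to 412.0 FPKM against 79.1 to 263.9). With control 2 left out the differences were 1.99, 2.12 and 1.88 for C1qa, C1qb and C1qc (adjusted p = 0.001002, 0.00149 and 0.00127), whereas with any other single library left out none of the 3 passed. C1qa and C1qb also missed the threshold with quantile normalization (adjusted p = 0.0613 and 0.0569) and without the filter on low values (adjusted p = 0.0547 and 0.0579), and C1qc passed with median ratio scaling (1.35, adjusted p = 0.0471). The ranges with the other libraries left out were 1.25 to 1.67 for C1qa, 1.31 to 1.82 for C1qb and 1.02 to 1.48 for C1qc.

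The 3 C1q genes lie side by side on the minus strand of chromosome 4 in GRCm38, with C1qb at 136880129 to 136886187, C1qc at 136889804 to 136893065 and C1qa at 136895917 to 136898803, 3.62 and 2.85 kb apart. Their levels kept nearly the same proportion in every library. The ratio of C1qb to C1qa was 1.14 to 1.23 in creeping fat and 1.02 to 1.17 in controls. That of C1qc to C1qa was 0.909 to 0.961 against 1.00 to 1.19, so relative to C1qa every creeping fat library had less C1qc than every control. The fold changes of C1qb and C1qc were close (1.71 ± 0.39 and 1.41 ± 0.42, SE), although only C1qb passed. The promoter windows of these neighbours are shown so that the adjacent genes can be compared by sequence. They are the 250 bases before and the 50 bases from the transcription start in RefSeq, build GRCm38.p6, minus strand. The windows lie at chr4:136886151-136886450 for C1qb and chr4:136892865-136893164 for C1qc. The gene positions above are from GENCODE, whose start of C1qc at 136893065 lies within the C1qc window, upstream of the RefSeq start used. Capitals mark a match to the PU.1 motif GAGGAAGT on either strand, found in C1qc and not in the C1qb window. PU.1 is a transcription factor of myeloid cells.
C1qb: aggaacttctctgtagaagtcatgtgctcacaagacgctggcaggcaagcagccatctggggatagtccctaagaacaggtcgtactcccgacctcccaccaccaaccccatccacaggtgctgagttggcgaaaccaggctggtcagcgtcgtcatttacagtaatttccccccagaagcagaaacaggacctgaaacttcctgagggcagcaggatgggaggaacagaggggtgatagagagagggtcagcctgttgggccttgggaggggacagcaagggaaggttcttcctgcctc
C1qc: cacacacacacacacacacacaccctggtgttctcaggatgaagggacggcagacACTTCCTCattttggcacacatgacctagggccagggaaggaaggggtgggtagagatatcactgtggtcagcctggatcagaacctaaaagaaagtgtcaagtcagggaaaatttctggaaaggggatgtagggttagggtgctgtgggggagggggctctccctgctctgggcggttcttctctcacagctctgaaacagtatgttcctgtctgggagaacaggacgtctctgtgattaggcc

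The PU.1 letters were present in 2 of 32 windows of 27 members (6.25%), those of C1qc and F13a1, and in 3.11% of 32544 windows of all genes. The match in C1qc is a description of letters and not a binding site, and 10 members had no window in the sequences used here.

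C1ra and C1s1 encode the proteases that C1q activates, and both rose with little spread between libraries. C1ra stood at 76.7, 65.3 and 72.6 FPKM in creeping fat and at 26.4, 31.1 and 28.7 in controls. For C1s1 the values were 272.5, 217.2 and 229.7 against 67.4, 72.8 and 88.5 FPKM. In both genes the lowest creeping fat library was more than 2 times the highest control. The rises were 1.29 ± 0.14 for C1ra (adjusted p = 0.00283) and 1.64 ± 0.17 for C1s1 (adjusted p = 0.00273), and both passed with any 1 library left out. The 2 genes are 6.90 kb apart on chromosome 6, on opposite strands. The ratio of C1s1 to C1ra was 3.16 to 3.55 in creeping fat and 2.34 to 3.08 in controls. Their copies C1rb and C1s2 stood at most at 4.84 and 1.51 FPKM, and how reads shared with these copies were assigned was not given in the sources used here.

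C4b, which encodes the C4 protein cleaved by C1s, rose by 1.25 ± 0.30 (225 ± 19.9 against 99.0 ± 36.9 FPKM, adjusted p = 0.0317). C4b still passed if control 1 was left out (0.93, adjusted p = 0.0384) or control 2 was (1.5, adjusted p = 0.00427), but with no other library left out (1.18 to 1.33). It missed the threshold with quantile normalization (1.13, adjusted p = 0.0775) and without the filter on low values (adjusted p = 0.0573). Its near-identical copy C4a was not among the genes measured, so its reads may be part of the value. C2, the next protease of the classical route, stood at 52.9, 38.6 and 44.1 FPKM in creeping fat and at 39.5, 39.3 and 40.6 in controls. Its groups overlapped and it differed by 0.17 ± 0.16 (adjusted p = 0.535), so the classical components did not all move alike.

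The lectin route members were low or went the other way. Fcna encodes ficolin A, a lectin of plasma and resident macrophages. It stood at 4.25, 14.1 and 8.32 FPKM in creeping fat and at 18.2, 68.7 and 26.0 in controls, so every creeping fat library lay below every control. At -1.87 ± 0.56 it did not pass (adjusted p = 0.0657), but passed without control 2 (-1.33, adjusted p = 0.0454). Fcnb, the ficolin of bone marrow and neutrophil precursors, was under the filter, with read counts of 0, 1 and 0 in creeping fat and of 1, 6 and 0 in controls. In the 3 libraries with no read, a limit of 3 reads allows up to 0.0425, 0.0468 and 0.0354 FPKM. Masp1, the protease that works with ficolins, stood at 1.52 to 1.82 FPKM in creeping fat within the control range of 0.508 to 3.81 (-0.01 ± 0.39, adjusted p = 0.989).

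**Figure D2:**
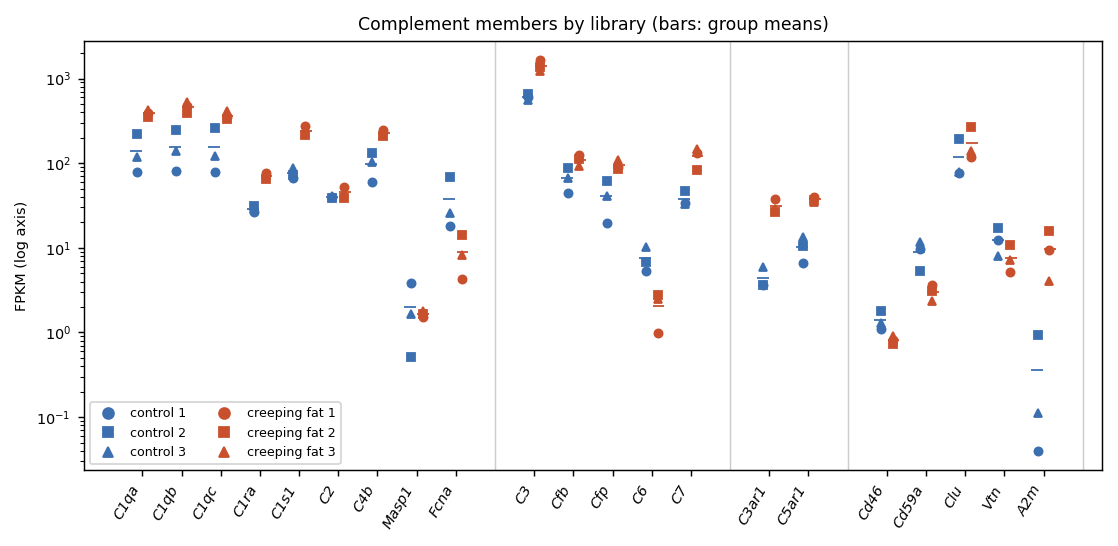
FPKM (log axis) of the complement members in each library, by role from left to right: classical and lectin components, C3 with alternative and terminal components, receptors, regulators and broad inhibitors; short bars are group means and Fcnb, at 0 in 3 libraries, is left out. C3, C1ra, C1s1, C3ar1 and C5ar1 show a clear gap between groups, the C1q points of control 2 lie between the other controls and creeping fat, and Fcna, C6 and Cd59a are lower in creeping fat.

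C3 rose, its alternative pathway partners did not pass, and the terminal components C7 and C6 went in opposite directions. C3, on which all routes meet, was the most abundant member, at 1647, 1369 and 1241 FPKM in creeping fat and at 612, 651 and 565 in controls. Every creeping fat library lay well above every control. The rise was 1.21 ± 0.20 (adjusted p = 0.00943), and it passed in 5 of 6 fits with 1 library left out, the exception being the one without creeping fat 1 (1.10, adjusted p = 0.0555). Cfb, the protease of the alternative route, stood at 92.1 to 124.8 FPKM against 44.9 to 87.8 and did not pass (0.76 ± 0.26, adjusted p = 0.102; 0.98 and 0.0121 without control 2). Cfb and C2 are neighbours on chromosome 17, 86 bases apart on the same strand, and share exon sequence with an annotated read-through gene. Cfp encodes properdin, a stabiliser of the alternative convertase made by myeloid cells, and stood at 86.2 to 110.7 FPKM against 19.7 to 62.2. It did not pass (1.33 ± 0.39, adjusted p = 0.063), but passed without control 2 (1.70, adjusted p = 0.0057) and with median ratio scaling (1.28, adjusted p = 0.0431).

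C7 and C6 are consecutive subunits of the terminal complex, encoded 174 kb apart on chromosome 15, and they moved in opposite directions. C7 stood at 132.8, 84.0 and 147.4 FPKM in creeping fat and at 33.7, 46.7 and 32.9 in controls, with the groups apart. It rose by 1.64 ± 0.26 (adjusted p = 0.0085) and passed with any 1 library left out. C6 stood at 0.978, 2.75 and 2.51 FPKM in creeping fat and at 5.30, 6.81 and 10.4 in controls, on 125 to 1590 reads per library. It fell by 1.47 ± 0.32 (adjusted p = 0.0236). The fall did not pass without creeping fat 1 (-1.18, adjusted p = 0.0681), creeping fat 3 (-1.60, adjusted p = 0.0616) or control 3 (-1.24, adjusted p = 0.0856).

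Both receptors for complement peptides rose, and C3ar1 had the second largest fold change of the members. C3ar1, the receptor of C3a, stood at 37.9, 26.5 and 28.8 FPKM in creeping fat and at 3.66, 3.63 and 5.95 in controls. The means differed 7.05 times and the groups lay far apart. C5ar1, the receptor of C5a on neutrophils and macrophages, stood at 40.4, 37.1 and 35.0 FPKM against 6.54, 10.5 and 13.5. It rose by 1.83 ± 0.24 (adjusted p = 0.00517), C3ar1 by 2.58 ± 0.22 (adjusted p = 0.00135), and both passed with any 1 library left out. Of 6 tested neutrophil markers 1 rose and 1 fell, with a summed share of 0.0159% to 0.0449% against 0.00312% to 0.0148%. The promoter window of C3ar1 at chr6:122856108-122856407 (GRCm38.p6, minus strand, RefSeq) is shown because this receptor had the largest rise among the complement components and receptors. Its capitals mark the AP-1 motif TGACTCA, whose first base lies 22 bases before the transcription start.
C3ar1: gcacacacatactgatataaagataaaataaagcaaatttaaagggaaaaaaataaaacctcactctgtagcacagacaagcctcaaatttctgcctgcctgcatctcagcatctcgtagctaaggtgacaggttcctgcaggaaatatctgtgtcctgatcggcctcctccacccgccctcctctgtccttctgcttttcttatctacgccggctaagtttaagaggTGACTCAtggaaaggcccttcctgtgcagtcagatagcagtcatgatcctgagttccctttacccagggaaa

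AP-1 is a transcription factor of the FOS and JUN families. Of 32 windows of members, 5 (15.6%) held TGACTCA or its reverse complement TGAGTCA, beside 5.19% of all 32544 windows. These 5 matches are printed with 20 bases on each side so that they can be compared. They belong to 3 genes that rose (C3ar1, F2r and Plaur) and 2 that did not pass (F3 and Procr). The stretches lie at chr6:122856153-122856199 (minus strand) for C3ar1, chr13:95618644-95618690 (minus) for F2r, chr7:24462394-24462440 (plus) for Plaur, chr3:121723382-121723428 (plus) for F3 and chr2:155751043-155751089 (plus) for Procr, in GRCm38.p6. The matches start 22, 204, 69, 135 and 154 bases before the transcription start in this order. None of the 32 windows held the NF-kB letters GGGACTTTC or GGGAATTTC (0.618% of all windows) or the C/EBP letters TTGCGCAA (0.184%), with both strands searched.
C3ar1: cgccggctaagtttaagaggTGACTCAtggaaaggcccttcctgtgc
F2r: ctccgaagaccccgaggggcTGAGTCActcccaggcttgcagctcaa
Plaur: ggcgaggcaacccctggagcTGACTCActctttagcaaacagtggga
F3: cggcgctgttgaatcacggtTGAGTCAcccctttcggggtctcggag
Procr: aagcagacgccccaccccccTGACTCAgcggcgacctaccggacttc

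Complement regulators did not follow the components. Of 5 tested regulators and broad inhibitors 1 rose and 1 fell, with a median of -0.38. Cd59a, a membrane protein that blocks the terminal pore, stood at 3.64, 3.09 and 2.37 FPKM in creeping fat and at 9.60, 5.38 and 11.6 in controls. It fell by 1.25 ± 0.28 (adjusted p = 0.0252), and passed without control 2 (-1.53, adjusted p = 0.00123) but with no other library left out (-1.35 to -1.04). Its copy Cd59b was under the filter, at 0.479 to 0.591 FPKM against 0.489 to 1.64. Cd46, a cofactor for C3b cleavage, was near the limit of the filter at 0.729 to 0.905 FPKM against 1.11 to 1.77 (-0.38 ± 0.17, adjusted p = 0.175), and part of its exons overlaps a transcript of the opposite strand.

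Clu encodes clusterin, a chaperone that also binds the terminal complex. It stood at 119.7, 268.8 and 138.5 FPKM in creeping fat and at 77.6, 195.7 and 79.6 in controls, so replicate 2 was the highest of both groups and the groups overlapped. The difference of 0.62 ± 0.45 did not pass (adjusted p = 0.413), but did without control 2 (1.06, adjusted p = 0.046). Vtn encodes vitronectin, an adhesive plasma protein that also inhibits the terminal complex. It stood at 5.14 to 10.7 FPKM against 8.10 to 17.1 (-0.63 ± 0.32, adjusted p = 0.245).

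A2m encodes alpha-2-macroglobulin, a secreted trap for proteases, and had the largest fold change of the members. It stood at 9.46, 15.7 and 4.08 FPKM in creeping fat and at 0.0399, 0.934 and 0.111 in controls. In controls these values rested on 10, 188 and 31 reads, against 864 to 3544 reads in creeping fat. The means differed 27.0 times, and the rise was 2.88 ± 0.46 (adjusted p = 0.00893), passing with any 1 library left out. On the log2 scale the difference was 4.78 with a pseudocount of 0.1, 1.38 with a pseudocount of 5 and 5.81 by voom on recovered reads, each passing the test. The share of seminal vesicle markers was 4.87%, 8.68% and 8.78% in creeping fat, where A2m was highest in creeping fat 2 and lowest in creeping fat 3. In controls the share was 4.71e-05%, 0.0156% and 0.00197%, and both the share and A2m were highest in control 2 and lowest in control 1. Both were higher in every creeping fat library than in every control. Which cells made the A2m transcripts was not tested.

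Among coagulation factors, the thrombin receptor and factors VII and X were higher. Of 5 tested members of this group 3 rose and none fell in limma's test (4 and 0 at an unadjusted p under 0.05; voom called none lower), with a median of 1.49. F2r, the thrombin receptor PAR1 of stromal cells and endothelium, stood at 46.0, 39.6 and 36.0 FPKM in creeping fat and at 8.09, 11.9 and 12.1 in controls. The groups lay far apart, and the rise of 1.84 ± 0.19 (adjusted p = 0.00251) passed with any 1 library left out. F10, the factor X zymogen, stood at 6.82, 4.02 and 7.29 FPKM against 1.20, 1.96 and 1.09. It rose by 1.53 ± 0.25 (adjusted p = 0.00939), also with any 1 library left out. F7, which encodes the partner of tissue factor, stood at 5.46, 2.45 and 6.47 FPKM against 0.458, 1.99 and 0.720, with 33 to 115 reads per control. It rose by 1.49 ± 0.38 (adjusted p = 0.0394) but passed only without creeping fat 2 (1.83, adjusted p = 0.0285) or without control 2 (1.80, adjusted p = 0.00645) and with no other library left out (1.27 to 1.40). F7 and F10 are adjacent on chromosome 8, 1.499 kb apart on the same strand, and in both genes replicate 2 was the lowest creeping fat library and the highest control.

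F3, which encodes tissue factor, the starter of coagulation, did not follow its partner. It stood at 24.8, 12.6 and 12.9 FPKM in creeping fat and at 20.1, 8.67 and 17.2 in controls. The groups overlapped and the difference was 0.13 ± 0.37 (adjusted p = 0.862), from -0.21 without control 2 to 0.35 without control 1. F13a1, the A chain of fibrin-crosslinking factor XIII and a gene of resident macrophages and megakaryocytes, stood at 48.4 to 57.6 FPKM against 15.6 to 39.3. It did not pass (0.99 ± 0.31, adjusted p = 0.0794), but did without control 2 (0.64, adjusted p = 0.0305) and without control 3 (1.28, adjusted p = 0.0487). F5, the cofactor of factor X, was under the filter at 0.795 to 2.00 FPKM in creeping fat and 0.462 to 0.874 in controls. Of 4 tested platelet and megakaryocyte markers 1 rose, with a share of 0.0193% to 0.0310% against 0.0081% to 0.0122%. The marker that rose was Pf4, at 57.0 to 87.8 FPKM against 12.3 to 28.2. The groups of Ppbp, Itga2b and Gp1ba overlapped, with fold changes of 0.41, -0.75 and -0.17 that did not pass.

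**Figure D3:**
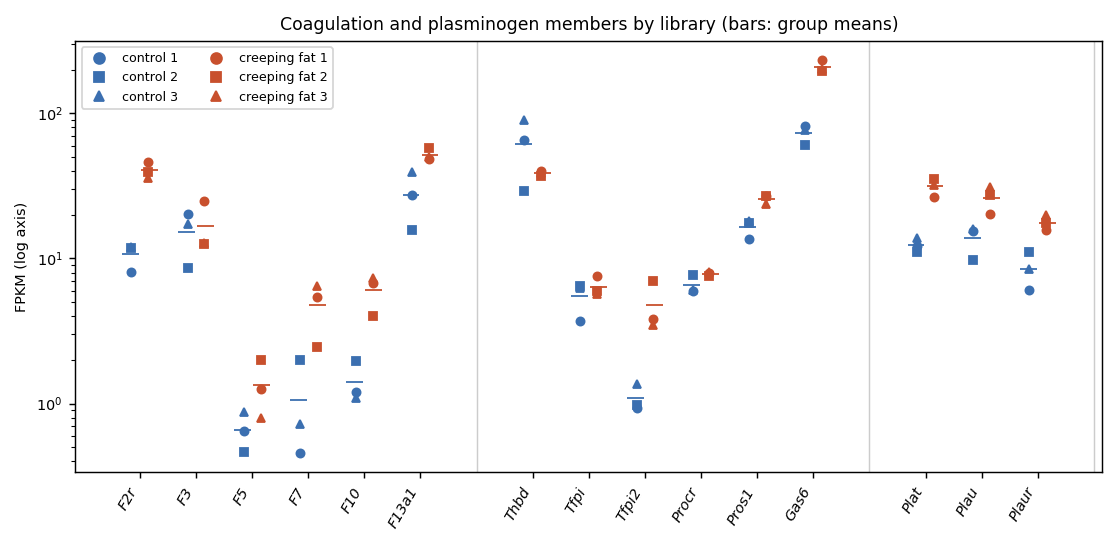
FPKM (log axis) of the coagulation and plasminogen members in each library: clotting factors and the thrombin receptor at left, anticoagulants and Gas6 in the middle, plasminogen activation at right; short bars are group means. F2r, Gas6 and Plat are separated by wide gaps, F3, Tfpi and Procr overlap, and the controls of Thbd are spread over 29.3 to 90.4 FPKM around the creeping fat points.

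Among anticoagulants and related genes Tfpi2, Pros1 and Gas6 rose, and Thbd, Procr and Tfpi did not pass. Of 6 tested members 3 rose and none fell in limma's test (3 and 0 at an unadjusted p under 0.05; voom called none lower), with a median of 0.43. Thbd, the endothelial thrombin-binding thrombomodulin, stood at 40.1, 37.3 and 38.6 FPKM in creeping fat and at 65.1, 29.3 and 90.4 in controls. The creeping fat libraries differed by little, and control 2 lay below them while control 1 and 3 lay above. The difference was -0.52 ± 0.38 (adjusted p = 0.422), and -0.97 without control 2 (adjusted p = 0.00489). Procr, the endothelial protein C receptor, stood at 7.54 to 8.13 FPKM against 5.93 to 7.65 (0.24 ± 0.14, adjusted p = 0.318; 0.34 and 0.0496 without control 2). Of 8 blood endothelial markers 2 fell, with a share of 0.0656% to 0.0876% against 0.0879% to 0.120%.

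Tfpi and Tfpi2 encode related Kunitz-type inhibitors, the first of tissue factor with factor VII and the second of plasmin and other proteases. Tfpi2 stood at 3.82, 6.94 and 3.48 FPKM in creeping fat and at 0.938, 0.974 and 1.36 in controls, on 55 to 439 reads. It rose by 1.42 ± 0.25 (adjusted p = 0.0115) and passed with any 1 library left out. Tfpi overlapped between the groups, at 5.68 to 7.53 FPKM against 3.74 to 6.47 (0.21 ± 0.22, adjusted p = 0.591). The difference of Tfpi was -0.01 without control 1.

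Pros1 and Gas6 encode related vitamin K-dependent proteins that bind the receptors Tyro3, Axl and Mertk, and protein S is also a cofactor of the anticoagulant protein C. Gas6 was abundant and stood at 232.1, 196.3 and 202.2 FPKM in creeping fat and at 82.3, 60.6 and 77.3 in controls. It rose by 1.51 ± 0.17 (adjusted p = 0.00346), with any 1 library left out as well. Pros1 rose less, by 0.63 ± 0.16 (25.9 ± 1.86 against 16.5 ± 2.47 FPKM, adjusted p = 0.0381), and passed without control 2 (0.67, adjusted p = 0.0149) but with no other library left out (0.50 to 0.70). Of their receptors, Tyro3 rose by 1.34 ± 0.24 (4.17 against 0.989 FPKM, adjusted p = 0.0121). Axl, at 79.0 to 98.3 FPKM against 60.4 to 75.2, and Mertk, at 9.44 to 13.9 against 6.99 to 15.2, did not pass (adjusted p = 0.151 and 0.753).

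The plasminogen activation genes were all higher in mean. Plat, which encodes tissue plasminogen activator, stood at 26.7, 35.5 and 32.0 FPKM in creeping fat and at 12.3, 11.1 and 13.8 in controls. It rose by 1.27 ± 0.16 (adjusted p = 0.00433) and passed with any 1 library left out. Plaur, the receptor that holds urokinase at the cell surface, stood at 15.7, 17.6 and 19.8 FPKM against 6.06, 11 and 8.47. It rose by 1.00 ± 0.22 (adjusted p = 0.0241), still passing if control 1 (0.80, adjusted p = 0.0483) or control 2 (1.19, adjusted p = 0.00276) was left out, but with no other library left out (0.92 to 1.08). Plau, urokinase itself, stood at 20.1, 27.4 and 31.1 FPKM against 15.5, 9.77 and 16.1. The groups of Plau did not overlap, and it fell short of the threshold at 0.89 ± 0.24 (adjusted p = 0.0514), passing without control 2 (0.68, adjusted p = 0.0312).

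Other genes of the 3 systems, from lists that share no gene with the members, are given by their counts. Of 20 tested complement genes outside the members 7 rose, of 18 coagulation genes 4, and of 8 fibrinolysis genes 3, with medians of 0.71, 0.28 and 0.63. Over all tested genes 9.35% rose and 6.81% fell, with a median of 0.02. None of the genes of these lists fell in limma's test or by voom. At an unadjusted p under 0.05, 2 complement genes and no other of the lists were lower. The complement genes with the largest rises were Itgam, the alpha chain of complement receptor 3 (1.99 ± 0.23, adjusted p = 0.0036), Serping1, the C1 inhibitor (1.95 ± 0.18, adjusted p = 0.00149), Cfi, the protease that inactivates C3b (1.52 ± 0.26, adjusted p = 0.0115), and Colec12, a scavenger collectin (1.25 ± 0.18, adjusted p = 0.00708). Serping1 stood at 568 to 752 FPKM against 162 to 184, so it exceeded its targets C1ra and C1s1 per length in every library. Cfi and C1s2, both counted among the rises, passed the filter through creeping fat only. Cfi stood at 1.65 to 3.66 FPKM in creeping fat and at 0.0493 to 0.491 in controls.

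In coagulation, Kng2, a kininogen gene, rose by 1.20 ± 0.23 (adjusted p = 0.0157), Vkorc1, which recycles vitamin K for the carboxylation of clotting factors, by 1.05 ± 0.21 (adjusted p = 0.0196), and Lman1, a cargo receptor for factors V and VIII, by 0.58 ± 0.13 (adjusted p = 0.0242). Kng2 passed the filter through creeping fat only, at 1.72 to 2.57 FPKM against 0.147 to 0.836 in controls. In fibrinolysis, Serpine2, an inhibitor of thrombin and plasminogen activators, rose by 2.06 ± 0.26 (48.5 against 11.4 FPKM, adjusted p = 0.00429). Lrp1, an endocytic receptor for protease complexes, rose by 1.20 ± 0.18 (adjusted p = 0.00775) and Serpinb6a, an intracellular serpin, by 0.92 ± 0.17 (adjusted p = 0.0153).

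Some central plasma factors were scarce in both groups. The genes named in this respect were singled out after their values were seen. F2 (prothrombin) stood at most at 0.771 FPKM, Plg (plasminogen) at most at 0.989 and Hc (complement C5) at most at 1.41, and the highest value of each was in control 2. The fibrinogen chain Fgb stood at 1.18 to 2.25 FPKM in creeping fat and at 0 to 1.79 in controls (0.63 ± 0.39, adjusted p = 0.337). Cfd, the adipocyte-secreted factor D that cleaves factor B, was by contrast the most abundant gene of these lists. It stood at 484, 1455 and 748 FPKM in creeping fat and at 5772, 1523 and 3253 in controls. Every creeping fat library lay below every control, but creeping fat 2 and control 2 were close to each other, and Cfd did not pass (-1.92 ± 0.58, adjusted p = 0.0697). C3 exceeded Cfd per length in creeping fat 1 and 3, and Cfd exceeded C3 in the other libraries.

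Because macrophage markers moved with the groups, the members were also set against them within each library. The geometric mean of 11 macrophage markers (none a member or a gene of the other pathway lists) was 97.1, 80.1 and 101 FPKM in creeping fat and 20.5, 43.2 and 34.8 in controls, so its means differed 2.82 times and control 2 was the highest control. With 3 libraries against 3 an exact permutation test cannot give a p under 0.1, so the ratios are described without a test. C1qa per macrophage marker level was 4.01, 4.34 and 4.25 in creeping fat and 3.85, 5.11 and 3.41 in controls. Those groups overlapped, as they did for C1qb, C1qc, Cfp, C5ar1 and F13a1.

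C3ar1 and Fcna did not keep in step with the mean of the markers. The 11 markers did not all move alike either. Their ratios of means, creeping fat over control, ran from 0.473 for Cd163 to 4.95 for Cd14, and Cd163 alone had a lower mean in creeping fat. The same ratio was 7.05 for C3ar1 and 0.236 for Fcna. C3ar1 per marker level was 0.391, 0.331 and 0.286 in creeping fat and 0.179, 0.0840 and 0.171 in controls, with every creeping fat library above every control. Fcna per marker level was 0.0438, 0.176 and 0.0825 against 0.886, 1.59 and 0.748. Its groups lay far apart on this scale too. Plaur lay the other way round from its FPKM, at 0.162 to 0.219 against 0.243 to 0.296. Over all 35 tested members, 2 (C3ar1 and A2m) lay above all controls per marker level, 13 below and 20 overlapped. The share of all tested genes on this scale was not computed, so these counts are not a result about the members. Because the marker level was 2.82 times higher in creeping fat, a gene with unchanged FPKM falls on this scale. Among the 13 were C2, Tfpi and Procr, which overlapped in FPKM, and Pros1 and Plaur, which rose in FPKM. Many of these genes are also expressed by other cells.

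**Figure D4:**
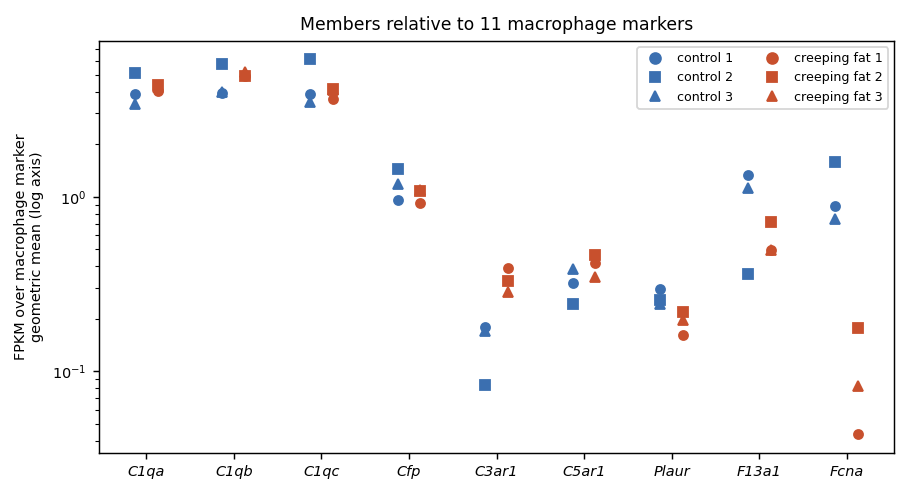
FPKM of 9 members expressed by macrophages, divided by the geometric mean of 11 macrophage markers in the same library (log axis), one point per library. The C1q chains, Cfp, C5ar1 and F13a1 overlap between groups, C3ar1 is higher in every creeping fat library, and Fcna and Plaur are lower in every creeping fat library.

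Within the controls the members fell into different patterns. In control 2, whose macrophage marker level was 1.56 times the mean of control 1 and 3, C1qa was 2.24 times, C1qb 2.27 times, C1qc 2.63 times, Fcna 3.11 times, F7 3.38 times and Cfp 2.04 times that mean. C1ra (1.13 times), C1s1 (0.934 times), C3 (1.11 times) and C2 (0.980 times) were close to it. Masp1 (0.186 times), Thbd (0.377 times), F3 (0.465 times), F13a1 (0.469 times) and Cd59a (0.507 times) were lower. A2m in control 2 was 12.4 times the mean of control 1 and 3, on 188 reads against 10 and 31. In creeping fat the spread was smaller for C1qa and Thbd, with a coefficient of variation of 10.4% for C1qa, against 52.5% in controls, and of 3.66% for Thbd, against 49.8%. The coefficient of variation of C1ra was 8.05% in creeping fat and 8.24% in controls.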

How the data were processed

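RNA of the 6 adipose libraries was isolated with a mirVana kit and made into stranded total RNA libraries after ribosomal RNA removal, per the labels' protocols. The authors deposited FPKM values of 22134 gene symbols, and the submitters' processing notes name build mm10. Not given in the sources used here are the aligner, the counting program, the annotation and the use of strand, so reads of overlapping genes and near-identical copies cannot be told apart.

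Members were matched by symbol and grouped by role, and all are named. From each of 3 lists of other pathway genes up to 4 called genes with the largest fold change in each direction are named, and a few more were chosen after their values were seen, as stated there. Members and lists were chosen with earlier results of these data known. Genes reaching 1 FPKM in 3 or more libraries were tested on log2(FPKM + 1) with limma 3.58.1 (R 4.3.3), group as the only term, two-sided moderated statistics from eBayes (trend = TRUE) and p-values Benjamini-Hochberg adjusted over all 12812 tested genes. The added 1 understates changes of low genes. The test was checked on simulated data.

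Whole reads were recovered from the FPKM steps for all 18714 genes above 0, within 0.002 reads, and library totals from short genes of known length. Intervals from reads cover counting error only. For genes with few reads the recovered length may be a fraction of the true one. A limit of 3 reads in a gene of 1 kb is 0.0691 to 0.0962 FPKM. Alternatives covered pseudocount, filter, scaling, variance model, voom on recovered reads, replicate block and left-out libraries. Positions are from GENCODE M21 (GRCm38) and promoter windows from RefSeq, GRCm38.p6. A result of a further fibrinolysis gene is not reported here.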

Additional observations from a re-analysis of the deposited data

How the results depend on the processing

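With 1 library left out at a time, the number of members that rose ranged from 11 to 25 (18 with all libraries) and that fell from 0 to 4 (2). Over all tested genes the ranges were 576 to 2896 higher and 287 to 1857 lower, and over the other pathway genes 7 to 21 (14) and 0 to 2 (0). The highest counts came without control 2, where the median of all tested genes was 0.131. Of the 20 members called, 11 passed in each of the 6 fits and 9 were lost in at least 1. Without creeping fat 2 and control 2 together 2713 genes rose and 1731 fell (median 0.15), with 22 members higher and 4 lower, and 24 and 1 of the other pathway genes. Array weights, whose estimation did not converge, gave 4216 and 3339 genes, 25 and 5 members, and 24 and 5 other pathway genes. Quantile normalization gave 15 members higher and 3 lower, losing C1qa, C1qb and C4b and adding Cd46 (-0.52, adjusted p = 0.0395). Without a filter on low values 13 members rose and 0 fell, losing C1qa, C1qb, C4b, C3 (adjusted p = 0.0651), F7 (0.0745), C6 (0.0504) and Cd59a (0.0522), and with a mean of at least 5 FPKM, which leaves out C6, 16 rose and 1 fell. Voom on recovered reads gave 18 and 2. The single members lost without 1 library are given with their values above. With all libraries 3 members were lower at an unadjusted p under 0.05, beside 1759 of all 12812 tested genes.

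The labels do not say whether the replicate numbers pair the libraries. Deviations from the group means of same-numbered libraries correlated at -0.18, -0.18 and -0.08, and no library correlated best with its own number. With 3 libraries per group this check cannot exclude a pairing. With the replicate block 636 genes rose and 378 fell, 12 and 2 members, and 8 and 0 other pathway genes, with Fcna added (-1.87, adjusted p = 0.0164) and C1qa, C1qb, C4b, Cd59a, F7, Pros1 and Plaur lost. Of the single members, Masp1 (-0.01) changed sign with a pseudocount of 0.1 (0.12), with the total taken without pancreatic and seminal vesicle genes (0.00), by voom (0.09) and with 1 library left out (-0.43 to 0.41). F3 (0.13) did so with array weights (-0.08), without creeping fat 2 and control 2 together (-0.05) and with 1 library left out (-0.21 without control 2 to 0.35). Tfpi (0.21) did so with 1 library left out (-0.01 without control 1 to 0.32). None of the 3 was called in any fit. The causes were not tested. Fcnb, A2m and F7 had under 50 reads in at least 1 library, so depth limits these most.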

Other observations

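Single libraries stood out in other complement, coagulation and fibrinolysis genes that were not described above, chosen after their values were seen. Serpinb2, which encodes plasminogen activator inhibitor 2, was under the filter and stood at 15.0 FPKM in creeping fat 2 and at 0.0157 to 1.17 FPKM in the other libraries. F8, the cofactor of factor IX, stood at 16.4 FPKM in control 2 and at 0.596 to 4.35 FPKM in the others. Vwf, the carrier of factor VIII in endothelium and platelets, stood at 72.6 FPKM in creeping fat 1 and at 22.7 to 39.9 FPKM in the others, and Cd55, a membrane inhibitor of complement convertases, at 35.4 FPKM in control 2 and at 6.56 to 17.3 FPKM in the others. None of the tested genes among these (F8, Vwf and Cd55) passed limma's test (adjusted p = 0.269, 0.944 and 0.961).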
